A study of Mus musculus with 42 samples.

Results

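The genes described here are 8 members of the mouse ADAM family chosen as sperm surface genes, namely Adam2, Adam3, Adam5, Adam18, Adam24, Adam26a, Adam30 and Adam32. They were taken by symbol out of the 27409 genes of a testes m6Am-Exo-Seq table. Of the 8 genes, 7 had enough signal to be tested over all 12 testes libraries and in the IP libraries alone, and 6 did so in the input libraries. Adam26a was at or close to 0 throughout and was not tested. Adam24 was tested wherever IP libraries entered, and among those 6 IP libraries it passed the signal minimum in all 3 of HET and in 1 of KO.

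The study asked what happens to transcripts in mouse tissues that lack PCIF1, the enzyme that methylates the adenosine next to the mRNA cap to make m6Am. The assay isolates capped RNA ends and precipitates them with an antibody against m6A, which also binds m6Am, so that each immunoprecipitated (IP) library can be set against an input library. There were 3 libraries each of IP from knockout (KO) testes, IP from heterozygous (HET) testes, input from KO testes and input from HET testes. All were from adult mice of 1 Cas9-made line with an 89 bp deletion in Pcif1, in which KO animals carried the deletion on both alleles and HET animals on a single allele. The founders were B6D2F1/J hybrids of C57BL/6J and DBA/2J and were crossed to C57BL/6J, so every group could hold a mixed background. The HET controls carried the deletion too, and no wild-type testes entered these comparisons. Ribosome footprinting of adult wild-type (WT) and KO brain gave 12 further libraries.

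ADAM proteins are membrane proteins with a metalloprotease-like domain and a disintegrin domain. In mice several of them are made in spermatocytes and spermatids, are processed on the way to the sperm surface or during passage through the epididymis, and sit on mature sperm as complexes. Mouse sperm that lack ADAM2 (fertilin beta) or ADAM3 (cyritestin) pass poorly into the oviduct and bind poorly to the zona pellucida, and loss of several chaperones and surface proteins has the same outcome together with loss of ADAM3. ADAM2, ADAM3, ADAM5, ADAM18 and ADAM32 lack a working zinc-binding protease site, while ADAM24 (testase 1), ADAM26a (testase 3) and ADAM30 keep one. ADAM24 has been linked in mice to the block to polyspermy.

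By the order of protein-coding genes in the RefSeq annotation of GRCm38.p6, which matched all 8 symbols, 6 of the 8 lie on chromosome 8. Adam18, Adam3, Adam5 and Adam32 follow each other there without another protein-coding gene between them, and Adam9, an ADAM gene of somatic tissues, comes next after Adam32. Adam24 is followed by Adam25, Adam20 and Adam39, and Adam26a stands between Adam26b and Adam34l. Adam2 lies on chromosome 14 between Gulo and Ephx2, and Adam30 lies on chromosome 3 between Notch2 and Reg4. The files' own genome build is not given in the sources used here, so no coordinates are set beside these values. Whether the counting used strand, and how it treated reads shared by near-identical genes, is not given either, which leaves the values of Adam24 and Adam26a uncertain with respect to their neighbours of the same subfamily.

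Values are signals, in which the read number of each gene was scaled by library but not corrected for gene length, so they allow libraries to be compared for 1 gene and not genes with each other. Gene reads numbered 1816831 to 4364847 per KO IP library, 2689591 to 6574479 per HET IP library, 4151226 to 4971554 per KO input and 4224175 to 4907380 per HET input. Pcif1 itself was below the signal minimum, at 0 to 8.98 in KO IP, 1.49 to 8.04 in HET IP, 1.64 to 7.98 in KO inputs and, for HET inputs, 5.53 to 10.4, so it does not check the genotype labels. HET IP replicate 2 gave the highest HET IP signal for 5 of the 7 tested ADAM genes, while 39.1% of all tested genes were highest in that library. Calls that turn on it, and values that leaving it out moves by over 1.5 times, are given with and without it. These are bulk tissue samples, so fewer cells of a type and less RNA per cell cannot be told apart.

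Adam2, one chain of the fertilin dimer, had the clearest difference between genotypes. Its signal was 991, 954 and 896 in the KO IP libraries, against 2224, 2978 and 2317 in the HET IP libraries. In the inputs it was 1256, 1308 and 1383 in KO, against 1488, 1532 and 1498 in HET. The IP libraries of HET thus all stood above the HET inputs, whereas the IP libraries of KO all stood below the KO inputs. KO also lay below HET without overlap in both kinds of library.

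Adam5 and Adam32, next to each other on chromosome 8, were high in the HET IP libraries. Adam5 had 1602, 1629.6 and 1392 in KO IP, against 2687, 4178 and 2990.2 in HET IP. Its inputs were 1202, 1432 and 1325 in KO, against 1606, 1461 and 1621 in HET. KO was below HET without overlap for Adam5 in IP and in input, although the highest KO input and the lowest HET input were close. Adam32 had 1001, 1088 and 1218 in KO IP, against 1329, 2975 and 2368 in HET IP, where replicate 1 was far below the other two. Its inputs were 854, 909 and 865 in KO, against 1142, 1079.9 and 1122 in HET, again without overlap. The IP libraries of Adam32 stood above the inputs of the same genotype in KO as well as in HET.

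Adam3 and Adam18, on the other side of Adam5, averaged less in the IP than in the input in both genotypes. Adam3, which sperm need for passage into the oviduct in mice, had 901, 661 and 861 in KO IP, against 1105, 1773 and 1172 in HET IP. Its inputs were 1506, 1552 and 1356 in KO, against 1699.7, 1714 and 1690.3 in HET. KO lay below HET without overlap in both kinds of library, and the KO IP lay below the KO input in every library. Adam18 was a low gene, with 15.0, 13.2 and 19.8 in KO IP, against 19.4, 44.4 and 25.0 in HET IP. Its inputs were 41.6, 35.2 and 41.7 in KO, against 54.5, 44.3 and 43.8 in HET. The IP groups of Adam18 overlapped and its input groups did not, with KO the lower.

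Of the members that keep a protease site, Adam24 was low but separated the IP groups, with 7.48, 8.81 and 13.5 in KO IP, against 29.8, 26.8 and 32.2 in HET IP. Its inputs were 9.75, 9.75 and 9.0 in KO, against 7.91, 13.9 and 13.5 in HET, and overlapped. These signals rest on 4 to 41 reads per library. Adam30 had 157, 271 and 173 in KO IP, against 159.6, 204 and 283 in HET IP, with overlap. Its inputs were 167, 149 and 122 in KO, against 179, 200.5 and 166 in HET, which overlapped as well. Adam26a had 1 read in HET IP replicate 3, a signal of 0.893, and 0 reads in each of the other 11 testes libraries. A count of 0 allows up to 3 reads, which for Adam26a is a signal of 2.70 to 6.61 in KO IP, 1.96 to 4.48 in HET IP, 2.25 to 2.66 in KO inputs and, for HET inputs, 2.37 to 2.77, and this limit covers counting error only.

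**Figure D1:**
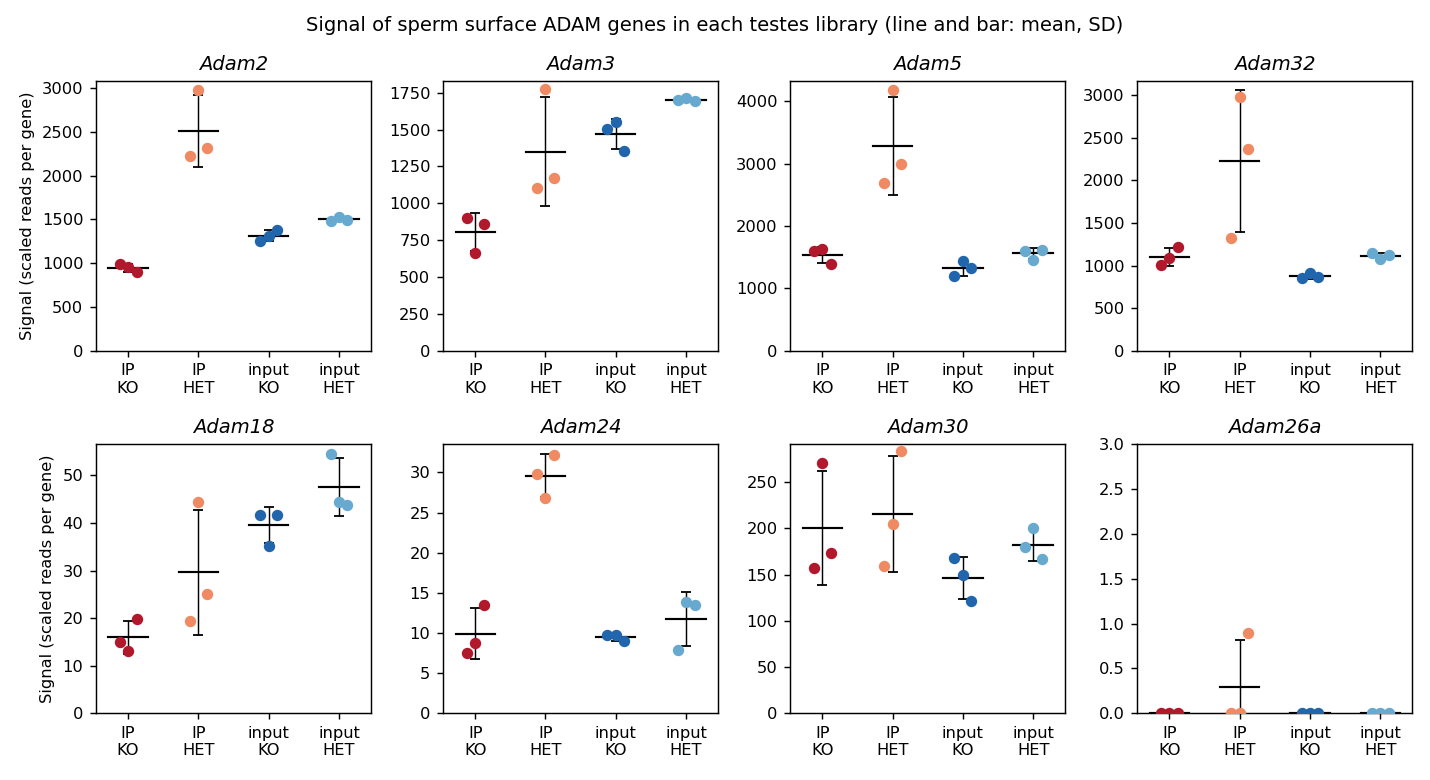
Signal (reads scaled by library, linear axis starting at 0, with its own range for each gene) of the 8 ADAM genes in each of the 12 testes libraries, in the order KO IP, HET IP, KO input and HET input; points are libraries, horizontal lines are group means and bars are SD. Adam2, Adam3, Adam5, Adam24 and Adam32 have all 3 KO IP points below all 3 HET IP points, and Adam26a has a single library above 0.

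Tests were run with limma on log2(signal + 1) over all genes, so folds are on that scale and understate the change of low genes, and a call is an adjusted p below 0.05. In KO testes, 3 of the 7 tested ADAM genes were lower in the IP than in the input and 0 were higher, where 24.3% of all tested genes were lower and 21.2% higher. Adam18 was lower by a log2 of -1.27 ± 0.31 (SE, adjusted p = 0.00333), Adam3 by -0.87 ± 0.17 (adjusted p = 0.000518) and Adam2 by -0.47 ± 0.12 (adjusted p = 0.00562). The values were 0.33 for Adam32 (adjusted p = 0.21), 0.22 for Adam5 (adjusted p = 0.236), 0.42 for Adam30 (adjusted p = 0.149) and 0.02 for Adam24 (adjusted p = 0.966). For Adam32 the groups did not overlap, with the IP higher, as for 26.0% of all tested genes, and for the 3 called genes they did not overlap with the IP lower, as for 29.0%. The median over the 7 ADAM genes was 0.02, which is the value of Adam24, beside -0.07 over all tested genes, and it lay between -0.20 and 0.19 with 1 library left out.

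In HET testes, 4 of the 7 were higher in the IP than in the input and 0 were lower, where 14.7% of all tested genes were higher and 15.4% lower. Adam24 was higher by a log2 of 1.29 ± 0.36 (SE, adjusted p = 0.0127), Adam5 by 1.05 ± 0.15 (adjusted p = 8.73e-05), Adam32 by 0.92 ± 0.21 (adjusted p = 0.00331) and Adam2 by 0.72 ± 0.12 (adjusted p = 0.000428). The same 4 had IP libraries wholly above the inputs, as did 22.8% of all tested genes (23.1% lay wholly below). Adam30 had a value of 0.21 (adjusted p = 0.531), Adam3 of -0.37 (adjusted p = 0.108) and Adam18 of -0.74 (adjusted p = 0.0784), all short of the threshold, of which Adam3 and Adam18 had an unadjusted p below 0.05. Without HET IP replicate 2, Adam3 at -0.58 (adjusted p = 0.00443) and Adam18 at -1.07 (adjusted p = 0.0128) passed as lower in the IP, and the 4 higher genes passed as before. Over their other alternatives, too, Adam3 and Adam18 fell on both sides of the threshold, with adjusted p-values of 0.000275 to 0.316 and 0.00194 to 0.251. Adam24 no longer passed without HET input replicate 1, at an adjusted p of 0.0696, within a range of 0.000418 to 0.0696. The median over the 7 ADAM genes was 0.72, beside 0.02 over all tested genes.

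**Figure D2:**
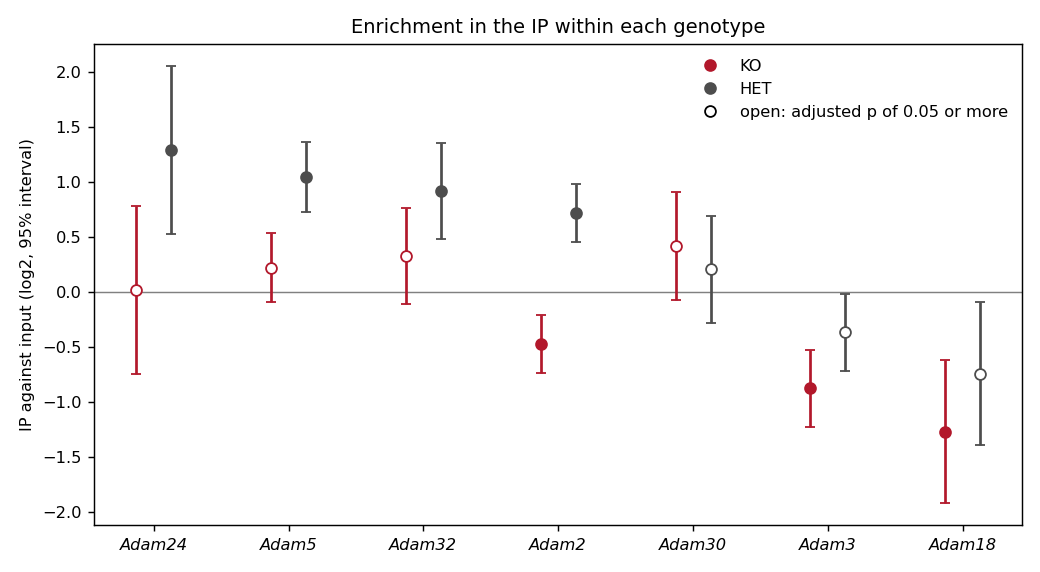
Log2 difference of IP from input (limma on log2(signal + 1)) for the 7 tested ADAM genes in KO and in HET testes; points are estimates, filled where the adjusted p is below 0.05, and bars are 95% confidence intervals. Adam2 lies at -0.47 in KO and 0.72 in HET, on either side of 0, while both Adam3 and Adam18 lie below 0 in both genotypes.

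The interaction, the difference of IP from input in KO minus the same difference in HET, asks which enrichment depended on genotype. It was negative and past the threshold for 2 of the 7 ADAM genes, Adam2 and Adam5, and 6.25% of all tested genes were lower in this way (3.72% higher). Adam2 had a log2 of -1.20 ± 0.18 (SE, 95% interval -1.57 to -0.83, adjusted p = 0.00111). It passed under every alternative run, with adjusted p-values of 2.4e-08 to 0.00642, and was -1.07 without HET IP replicate 2. Adam5 had -0.82 ± 0.21 (95% interval -1.27 to -0.38, adjusted p = 0.0232). Its call was lost when HET input replicate 1, 2 or 3 was left out (adjusted p = 0.0527, 0.0656 and 0.0503) or KO input replicate 2 or 3 (adjusted p = 0.0731 and 0.0553), and the range over all alternatives was 0.00247 to 0.0731. Without HET IP replicate 2 it was -0.64 (adjusted p = 0.0234).

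The other 5 did not pass, and their intervals leave room for sizeable differences in several cases. Adam24 had -1.27 ± 0.51 (SE, adjusted p = 0.121), on few reads. Adam32 had -0.59 (95% interval -1.21 to 0.03, adjusted p = 0.206). It passed without HET IP replicate 1, the library in which its HET IP signal was 1329, at -0.92 and an adjusted p of 0.0042, was -0.34 without HET IP replicate 2, and its range over all alternatives was 0.0042 to 0.387. Adam3 had -0.51 (adjusted p = 0.179), Adam18 -0.53 (adjusted p = 0.469) and Adam30 0.21 (95% interval -0.48 to 0.91, adjusted p = 0.721). Without HET IP replicate 2, Adam3 was -0.30 and Adam18 -0.20. The median over the 7 was -0.59, beside -0.01 over all tested genes, but it was -0.34 without HET IP replicate 2 and -0.92 without HET IP replicate 1. In the authors' deposited table, the same quantity was -1.21 for Adam2 (adjusted p = 2.53e-09) and -0.85 for Adam5 (adjusted p = 0.00303). For Adam32, Adam3, Adam18, Adam24 and Adam30 the authors' deposited table has -0.67, -0.53, -0.62, -1.20 and 0.19, with adjusted p-values of 0.118 to 0.778, and the same 2 genes are therefore past 0.05 in both.

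**Figure D3:**
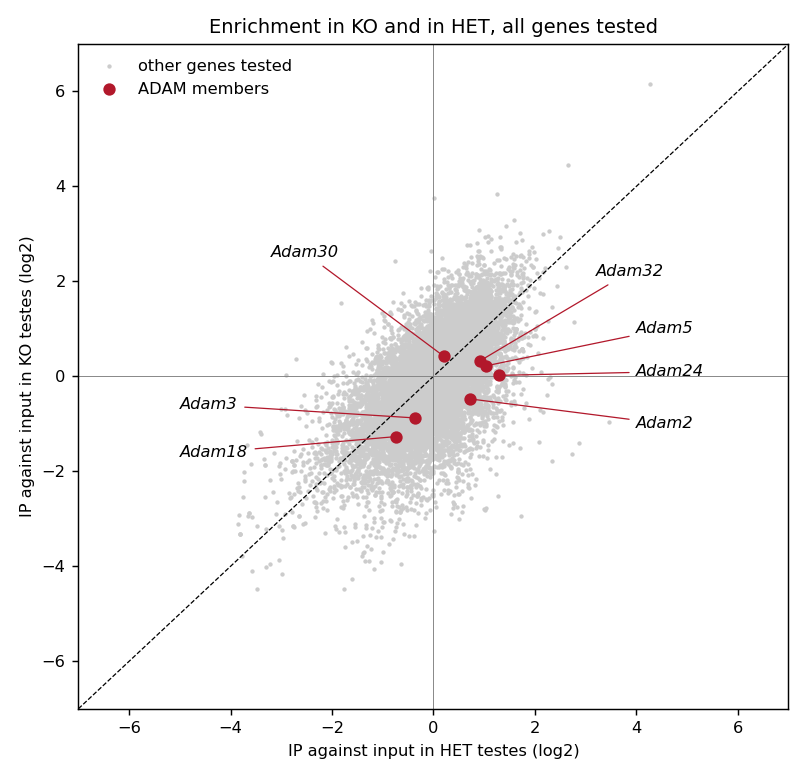
Log2 difference of IP from input in HET testes (horizontal) and KO testes (vertical) for every tested gene (grey) and the 7 tested ADAM genes (labelled); the diagonal marks equal values in both genotypes. All ADAM genes except Adam30 lie below the diagonal, Adam2 and Adam5 past the threshold of the interaction test.

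Without division by input, 5 of the 7 ADAM genes had lower IP signal in KO than in HET, against 14.8% of all tested genes (11.5% were higher). The log2 difference was -1.39 ± 0.18 (SE, adjusted p = 0.000338) for Adam2, -1.07 ± 0.19 (adjusted p = 0.00219) for Adam5, -0.94 ± 0.25 (adjusted p = 0.0156) for Adam32, -1.52 ± 0.43 (adjusted p = 0.0202) for Adam24 and -0.72 ± 0.22 (adjusted p = 0.0261) for Adam3. These 5 are also those whose IP groups did not overlap, as was the case with KO lower for 22.1% of all tested genes (20.9% with KO higher). Adam24 reached the signal minimum in all 3 HET IP libraries and 1 KO IP library, so it entered this test through the group in which it was high, and its place among the 5 is not support. Adam18 had -0.78 (adjusted p = 0.19), or -0.46 without HET IP replicate 2, and Adam30 -0.11 (adjusted p = 0.80). The calls of Adam2 and Adam5 were kept under every alternative, while each of the other 3 was lost in some. Adam3 missed the threshold without HET IP replicate 2 (adjusted p = 0.0767), HET IP replicate 3 (0.0519) or KO IP replicate 2 (0.103). Adam32 missed it without HET IP replicate 3 (0.0686) or KO IP replicate 1 (0.0591), and Adam24 without HET IP replicate 3 (0.0972) or KO IP replicate 1 (0.056). The median over the 7 was -0.94, beside 0.01 over all tested genes. In this and each of the other 4 comparisons, edgeR and DESeq2 on the recovered reads called as many of these ADAM genes in each direction as limma did.

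In the input libraries the differences were smaller and mostly did not pass. Adam32 was lower in KO by a log2 of -0.35 ± 0.08 (SE, 95% interval -0.51 to -0.18, adjusted p = 0.0142), the 1 call among 6 tested ADAM genes, where 6.01% of all tested genes were lower (3.32% higher). Adam32 averaged 876 ± 29.1 in KO inputs and 1114 ± 31.5 in HET inputs (SD, n = 3 each). Its call was lost without HET input replicate 3 (adjusted p = 0.0687) and when the spread was taken over all 12 libraries (adjusted p = 0.591), within a range of 0.00281 to 0.591. Adam5 had -0.25 (adjusted p = 0.0833), Adam3 -0.21 (adjusted p = 0.0983), Adam2 -0.20 (adjusted p = 0.113), Adam30 -0.32 (adjusted p = 0.151) and Adam18 -0.26 (adjusted p = 0.42). The median over the 6 was -0.25, beside -0.00 over all tested genes. For Adam2, Adam3, Adam5, Adam18 and Adam32, the KO inputs lay below the HET inputs without overlap, as did 16.5% of all tested genes (13.3% lay above). Adam24 averaged 9.50 ± 0.43 in KO inputs and 11.8 ± 3.35 in HET inputs (SD, n = 3 each; exact permutation test, two-sided p = 0.4, where 3 against 3 cannot go below 0.1). With libraries scaled to equal totals instead, the median of all genes moved to 0.06 and the calls over all genes were 582 higher and 461 lower, in place of 374 higher and 678 lower. Adam32 was lower under either scaling.

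**Figure D4:**
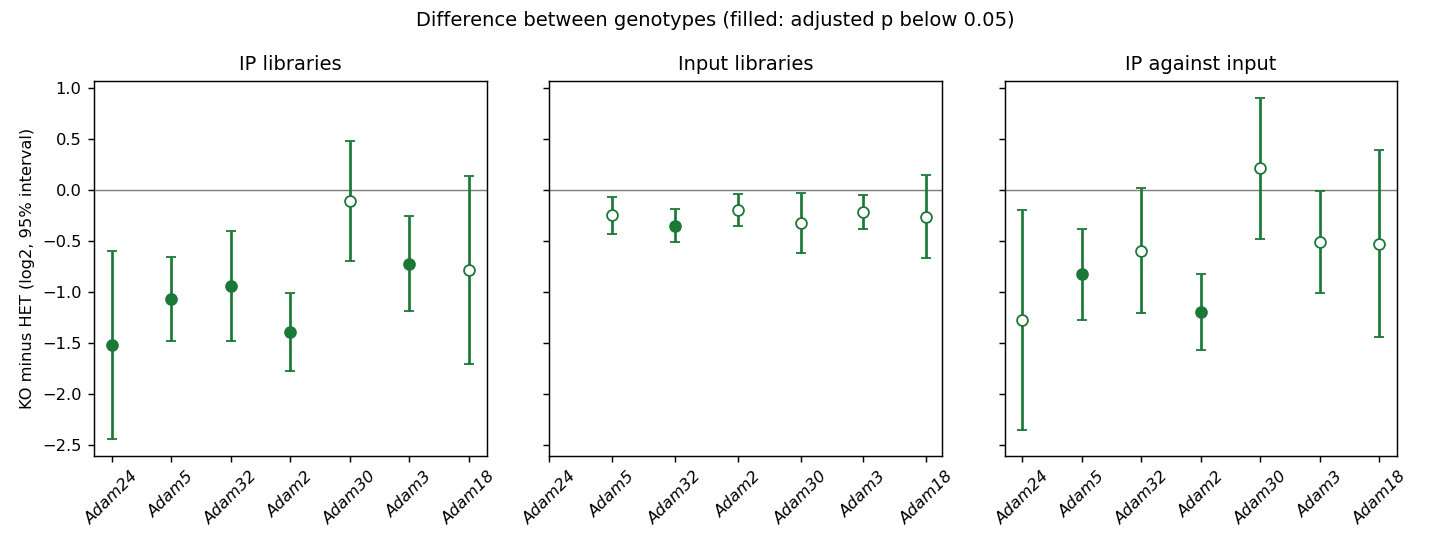
Log2 difference of KO from HET (limma on log2(signal + 1)) in the IP libraries (left), the input libraries (middle) and the difference of IP from input (right) for each tested ADAM gene; points are estimates, filled where the adjusted p is below 0.05, and bars are 95% confidence intervals. The IP difference is the larger in size for Adam2, Adam3, Adam5, Adam18 and Adam32, and the input difference for Adam30. Adam24 was not tested in the inputs.

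The neighbours Adam5 and Adam3 can be compared within each library. The Adam5 signal divided by that of Adam3 was 1.78, 2.47 and 1.62 in KO IP, 2.43, 2.36 and 2.55 in HET IP, 0.798, 0.923 and 0.977 in KO inputs and 0.945, 0.853 and 0.959 in HET inputs. The ratio was higher in every IP library than in every input library. Between IP and input the exact permutation test gave p = 0.1 in KO and in HET (two-sided), the smallest it can give with 3 against 3. Between KO and HET it gave 0.3 in the IP, at means of 1.95 ± 0.45 in KO and 2.45 ± 0.10 in HET (SD, n = 3 each), and 0.7 in the inputs. This pair was chosen after its values were seen. Adam9, the somatic gene next to Adam32, had a log2 difference of IP from input of 0.23 in KO and -0.50 in HET, and neither passed.

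Other ADAM genes of the germ line were mostly too low to test, since 12 of 14 listed genes were in the table and 4 passed the filter over 12 libraries. Adam26b, the neighbour of Adam26a, averaged 9.26 in KO IP, 35.3 in HET IP, 12.7 in KO inputs and 13.5 in HET inputs. It was higher in the HET IP than in the HET input by a log2 of 1.44. That was the 1 limma call there, while edgeR and DESeq2 each called 2 of the 4 as higher. Adam26b was lower in the KO IP than in the HET IP by -1.93 (adjusted p = 0.00938). Over all tested genes, 14.7% were higher in the HET IP than in the HET input. Adam26b entered the test of the IP libraries alone through HET IP, where all 3 libraries reached the signal minimum, against 1 in KO IP. Adam29 was also lower in the KO IP, by -1.39 (adjusted p = 0.0146), with means of 18.1 in KO and 49.7 in HET. Adam26b and Adam29 were the 2 calls among 4 tested genes, where 14.8% of all tested genes were lower in the KO IP. In the interaction, 0 of these 4 passed in limma, edgeR or DESeq2. In limma 2 had an unadjusted p below 0.05, namely Adam26b at -1.94 (adjusted p = 0.0587) and Adam29 at -1.18 (adjusted p = 0.0725). Among 13 listed ADAM genes of somatic tissues, 6 were tested in the IP libraries alone. Of these 6, 1 was higher in the KO IP than in the HET IP, where 11.5% of all tested genes were higher. That gene was Adam10, the sheddase of Notch and many other surface proteins, at 1.29 (adjusted p = 0.00293), with means of 375 in KO IP, 150.3 in HET IP, 131 in KO inputs and 91.7 in HET inputs. Adam10 was higher in the KO input too, by 0.51 (adjusted p = 0.0311). It was the 1 call among 6 tested there, where 3.32% of all tested genes were higher.

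Genes that help sperm ADAM proteins to mature and reach the surface moved in both directions, with 15 of 17 tested. In the interaction 2 were lower and 1 was higher, where 6.25% of all tested genes were lower and 3.72% higher. Clgn, the endoplasmic reticulum chaperone that mouse ADAM2 and ADAM3 need, was lower by -1.12 (adjusted p = 0.00438), with means of 222 ± 16.0 in KO IP, 565 ± 77.8 in HET IP, 870 ± 94.8 in KO inputs and 1011 ± 131 in HET inputs (SD, n = 3 each). Prss37, a protease-like protein required for ADAM3 processing in mice, was lower by -1.44 (adjusted p = 0.0077), and Pcsk7, a proprotein convertase, was higher by 0.82. In HET, 4 were higher in the IP than in the input and 3 lower, where 14.7% of all tested genes were higher and 15.4% lower, among them Cmtm2b (1.08) and Pcsk7 (0.60) as higher and Clgn (-0.84) and Ace (-1.14) as lower. In the inputs 2 of 14 were lower in KO and 0 higher, where 6.01% of all tested genes were lower. These were Cmtm2a, which with Cmtm2b is needed for ADAM3 on mouse sperm, at -0.60 (adjusted p = 0.00445), and Pcsk4, a proprotein convertase of germ cells, at -0.31 (adjusted p = 0.0386). Of the sperm-egg adhesion and fusion genes, 3 of 12 were lower in the interaction, 5 of 11 were lower in the KO IP than in the HET IP and 3 of 11 in the KO input, and 0 were higher in any of these. Over all tested genes, 6.25% were lower in the interaction, 14.8% in the KO IP and 6.01% in the KO input. Cd46, of the same list, had 10.7 to 13.1 in HET IP and at most 8.11 in KO IP. It entered the test of the IP libraries alone through HET IP, so a call of it there would not be support.

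Many sperm surface proteins are made in the spermatid stages. Summed markers of these stages were lower in KO than in HET in the IP and in the inputs, as were the summed ADAM genes. Of 14 round spermatid markers, 3 also stand in the adhesion list and 1 in the maturation list. Catsper3 was at 0 in all 3 KO IP libraries and Acrv1 in 1 of them. Acrv1 had a signal of 0 to 11.7 in KO IP and 68.6 to 94.0 in HET IP. It entered the test of the IP libraries alone through HET IP, so a call of it there is not support. The summed signal of the 14 was 3790 to 4116 in KO IP, 6626 to 8003 in HET IP, 3630 to 4063 in KO inputs and, in HET inputs, 4683 to 5066. As a percentage of the HET input mean, that was 76.9 to 83.5% in KO IP, 134.5 to 162.4% in HET IP, 73.7 to 82.5% in KO inputs and, in HET inputs, 95.1 to 102.8%. The summed signal of the 8 ADAM genes was 74.7 to 76.3% in KO IP, 123 to 199% in HET IP, 82.2 to 88.1% in KO inputs and, for HET inputs, 98.7 to 100.8% on the same scale. By gene, 4 of 13 round spermatid markers were lower in the KO input and 0 higher, with a median of -0.44, and 9 of 13 were lower in the KO IP and 0 higher, where 6.01% of all tested genes were lower in the KO input and 14.8% in the KO IP. In the interaction, 6 of these 13 were lower and 0 higher, with a median of -1.23, where 6.25% of all tested genes were lower. The median over the 7 ADAM genes there was -0.59. Among elongating spermatid markers, 1 of 8 was lower in the KO input and 4 of 8 in the KO IP, and 0 were higher. Their median was -0.28 in the input and -0.82 in the IP. In the input 6 of the 8 were lower at an unadjusted p below 0.05 in limma. There edgeR called 1 and DESeq2 3 as lower, and in the IP each called 5. In the interaction, 1 of these 8 was lower and 0 were higher. Their summed signal was 80.8 to 85.7% of the HET input mean in KO IP and 103.4, 158.9 and 109.8% in the 3 HET IP libraries, where replicate 2 was the highest as it was for the ADAM genes. The part of the spermatid markers in the ADAM differences was not tested.

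Some markers of several other cell types were higher in the KO inputs. Against HET inputs, 2 of 13 meiotic spermatocyte markers, 2 of 8 Sertoli cell markers and 1 of 3 peritubular and vascular markers were higher, where 3.32% of all tested genes were higher. For the spermatogonial, Leydig cell and macrophage lists, 0 of 7, 0 of 3 and 0 of 1 tested markers passed in limma, edgeR or DESeq2, and 2, 1 and 0 had an unadjusted p below 0.05 in limma, all of them higher in KO. Summed Sertoli cell signal was 2486 to 2642 in KO inputs, against 2081 to 2169 in HET inputs. Most of that sum came from Amhr2, which averaged 1856 in KO inputs and 1515 in HET inputs. The median log2 difference over the 8 tested Sertoli cell markers was -0.05, so the sum does not describe the list as a whole. Summed spermatogonial signal was 475 to 533 in KO inputs, against 389.8 to 399.9 in HET inputs, and summed peritubular and vascular signal was 72.7 to 96.7 in KO inputs, against 49.0 to 61.3 in HET inputs. For these 3 lists the inputs of KO and HET did not overlap, whereas meiotic spermatocyte, Leydig cell and macrophage sums did. In the KO IP against the HET IP, 3 of 12 meiotic spermatocyte markers were lower and 1 higher, with a median of -0.53. Over all tested genes 14.8% were lower there and 11.5% higher. Their summed signal went the other way, at 4219 to 4520 in KO IP against 3919 to 4121 in HET IP. In the interaction 1 of 13 was lower and 0 higher, with a median of -0.46, where 6.25% of all tested genes were lower. The part of these markers in the ADAM differences was not tested. Epididymal epithelium markers, which would show adhering epididymis, summed to 8.86 to 25.5 in KO inputs, against 6.32 to 7.39 in HET inputs. These sums did not overlap either. Of the 10 genes in this list 4 were not listed in the data and 1 passed the filter over 12 libraries. The low sum therefore cannot show that epididymis was absent.

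**Figure D5:**
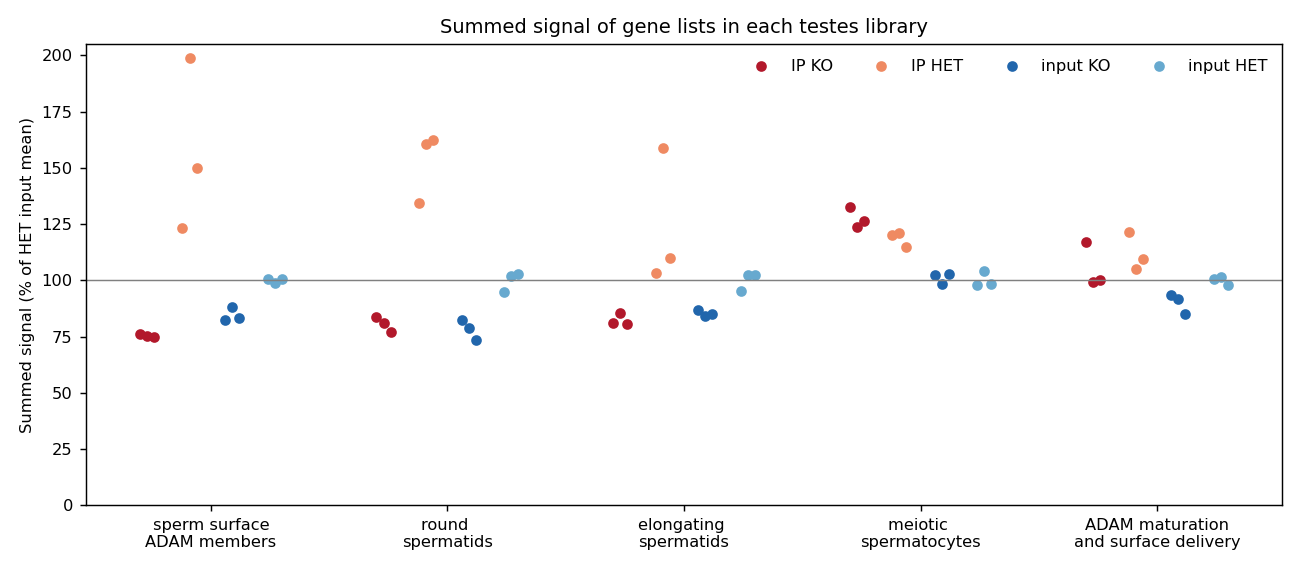
Summed signal of the 8 ADAM genes, of markers of round spermatids, elongating spermatids and meiotic spermatocytes, and of genes for ADAM maturation and surface delivery, in each testes library, as a percentage of the HET input mean, in the order KO IP, HET IP, KO input and HET input; points are libraries. The ADAM genes and the round spermatid markers are both highest in HET IP and below the HET inputs in KO input, at 82.2 to 88.1% and 73.7 to 82.5%.

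The median profile of the 7 tested ADAM genes, as log2 differences of group means from the HET input, was -0.22 in KO IP, 0.72 in HET IP and -0.25 in KO input. Adam32, Adam5 and Adam2 were nearest to it, with root mean square differences of 0.174, 0.22 and 0.259, and Adam3 (0.802) and Adam18 (1.13) were farthest. Outside the ADAM genes, the closest profiles over these 4 groups of 12 libraries were those of Mzt2 (0.0198), Cox6b2 (0.0255), Gm36423 (0.0431), Lrrc57 (0.045) and Gm14167 (0.0478). As many as 893 of 12380 other tested genes (7.21%) were as near as the median ADAM gene, which was 0.33 away.

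In the brain, where the values were scaled separately and are not comparable with those of testes, the ADAM genes were at or close to 0. Adam26a was listed at 0 in all 12 libraries, and Adam2, Adam24 and Adam30 did not exceed 0.639. Adam3 reached 2.78, Adam5 5.37 and Adam18 9.68. Adam32 had 0.424, 29.97 and 6.93 in the KO inputs, against 3.08, 0.917 and 3.28 in the WT inputs, so a single KO library stood out. The brain values were described and not tested.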

How the data were processed

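For testes, the authors deposited 1 table with a signal per gene and library, which is reads divided by a library factor, together with their log2 fold and adjusted p-value. The brain table deposited by the authors holds a signal scaled separately. Tools listed in the submitters' processing notes are DESeq2 1.25.10, DESeq, STAR, Salmon 0.12.0 and R 3.6.2, with no role attached, and the sources used here give neither build and annotation nor strand use. In testes 100% of values were whole multiples of 1 read within 0.01, so whole reads were recovered. The planned main test for raw counts gave way to limma 3.58.1 (R 4.3.3) with trend on log2(signal + 1), applied to genes that reached a signal of 10 in 3 or more of the fitted libraries, with Benjamini-Hochberg adjustment over all genes. KO against HET used 6 libraries, and IP against input and the interaction used 1 model of 12. On the recovered reads, edgeR 4.0.16 called 1089 genes in input, 4121 for IP in HET, 5544 for IP in KO and 1444 in the interaction, and DESeq2 1.42.0 was run as well. The input and interaction fits were also run on simulated data, and the outcome is not used here. The comparisons of IP against input and of the IP libraries alone were not simulated. Replicates have no number in the labels and were not paired. The labels describe biological triplicates, and where animals were pooled or shared between IP and input is not stated, so the p-values reflect only how far these samples vary.

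The 8 genes and all gene lists were chosen with earlier results of these data known. All 8 genes are named with every testes library. In other lists up to 4 genes with the smallest p in a comparison could be named, and the 5 nearest profiles were named by root mean square difference. The 18 tissue RNA-seq libraries, protein features and start-site sequence were not analysed here.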

Additional observations from a re-analysis of the deposited data

Results flagged for a closer look

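The difference of IP from input differed between KO and HET testes by the interaction test for Adam2, at a log2 of -1.20, and for Adam5, at -0.82, with the adjusted p-values given above. Adam2 had all KO IP libraries below the KO inputs and all HET IP libraries above the HET inputs. Adam5 had IP above input in HET, while the KO groups overlapped.

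In the brain, which no comparison here uses, Adam32 had a signal of 29.97 in KO input replicate 2, above the 3 WT inputs at 3.08, 0.917 and 3.28, while KO input replicates 1 and 3 had 0.424 and 6.93. It is 1 library, and the value was not tested.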

How the results depend on the processing

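Of the single-gene values recomputed with 1 library left out, 306 kept their direction and their side of the threshold, 4 newly passed, 14 no longer passed and 6 turned. Under the other alternatives these numbers were 292, 6, 1 and 2. The count of all genes called in the inputs was 1052, and 25 with the spread taken over all 12 libraries, where 0 ADAM genes were called. For IP against input in HET it was 3732, and 6471 with array weights, where all 7 tested ADAM genes were called. For the interaction it was 1235, 793 with no filter and 2604 with array weights, and for KO against HET in the IP 2988, and 4780 with the spread over all 12 libraries. The causes of these shifts were not tested.

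Leaving out 1 library at a time, the counts ran from 281 to 1433 in the inputs (0 to 1 ADAM genes), 2671 to 4175 for IP against input in HET (3 to 6), 4444 to 5934 in KO (3 to 4), 546 to 1729 for the interaction (1 to 3) and 1606 to 2814 for KO against HET in the IP (2 to 5). The count over all genes moved by over 1.5 times in the inputs without any HET input (615, 508 and 281 without replicates 1, 2 and 3) or without KO input replicate 2 or 3 (438 and 459). It did so in the interaction without any HET input (605, 662 and 640) or KO input (814, 546 and 675), and in the IP without HET IP replicate 3 (1606). An arm left with 2 libraries is assumed to vary like the others.

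The directions that turned were all of values that had not passed. Adam24 in IP against input in KO was -0.073 with equal library totals, -0.01 without KO input replicate 3 and -0.20 without KO IP replicate 3, and 0.19 at the highest with 1 library left out. Adam30 was -0.0077 in IP against input in HET without HET IP replicate 3, and up to 0.40 with another library left out. Its interaction was -0.19 with array weights and -0.023 without KO IP replicate 2, and up to 0.43 with another left out. Its difference of KO from HET in the IP was 0.11 without HET IP replicate 3 and 0.04 without KO IP replicate 1, and -0.35 at the lowest. With equal library totals the median of IP against input in KO over all genes moved to -0.18, beside -0.07. No paired analysis was possible because the labels carry no replicate numbers. The low reads of Adam24 and Adam18, and the 1 read of Adam26a, limit what can be said of these genes.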
